A study of Homo sapiens with 8 samples.

Results

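The γH2AX regions described here lie on the long arm of human chromosome 1, in bands 1q21.3 to 1q23. They are the peaks whose midpoint falls in the 15 Mb that begin at 150 Mb of build hg19, in each of the 3 deposited peak lists. Together they number 1218 of 54434 peaks. The Pt-ttpy list holds 361 of its 18223 regions in this block, the cisplatin list 826 of 26121 and the untreated list 31 of 10090. The block was chosen by position with the density of peaks along the chromosome already known, so its counts are descriptions and were not tested. The cells are A2780, an established human ovarian carcinoma line. They were given Pt-ttpy or cisplatin, each at its own IC80 and for 96 hours, or left untreated, and γH2AX-bearing chromatin was pulled down and sequenced. Both samples of a group share 1 list per the labels, so no value below has replicates. Cell identity cannot be checked from peak positions. Input chromatin of untreated cells was not analysed here.

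γH2AX is histone H2AX phosphorylated on its tail. The mark is laid down by damage kinases in chromatin around DNA double-strand breaks and at stalled replication forks, where it spreads well beyond the lesion and recruits repair factors. Cisplatin forms crosslinks between neighbouring purines, mostly guanines, which block replication and transcription. Pt-ttpy, per the title of the series, binds G-quadruplexes, structures that guanine-rich DNA can fold into, and the study asked where in the genome the damage lies.

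The bands are known, as background, for large families of neighbouring genes. Among them are the S100 genes for calcium-binding proteins, and the LCE and SPRR genes of the epidermal differentiation complex, which code for proteins of the cornified envelope of skin. The CD1 genes, whose products present lipid antigens, belong to them too, as do olfactory receptor genes and the PYHIN family with the DNA sensors AIM2 and IFI16. The SLAM family of receptors on immune cells and the low-affinity Fc gamma receptors, which bind IgG, also lie there, and the bands hold many tRNA genes. The gene table at hand is of another build (GRCh38) than the peak lists, so no region was assigned to a gene and the gene density of the block was not measured. No sequence of hg19 was used here, and guanine-rich motifs in the regions were not examined.

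The regions were far more numerous in both treated lists than among the regions kept in the untreated list. Pt-ttpy regions numbered 24.1 per Mb, cisplatin regions 55.1 per Mb and untreated regions 2.07 per Mb. There were 0.437 Pt-ttpy regions per cisplatin region (95% exact interval 0.385 to 0.495, counting error only). They made up 2.03% of the Pt-ttpy, 3.22% of the cisplatin and 0.319% of the untreated regions on chromosomes 1 to 22 and X. They covered 61.0 kb after Pt-ttpy, 141 kb after cisplatin and 4.38 kb without drug, or 0.407%, 0.938% and 0.0292% of the block. The contrast with untreated cells shrank for cisplatin and was reversed for Pt-ttpy when every list was held to its 10090 regions of highest fold. There were then 26 Pt-ttpy, 37 cisplatin and 31 untreated regions in the block. The untreated list is 10090 regions long, so only the treated lists were cut, and they lost their weaker regions. With a -log10 q of at least 5 in each list, 36 Pt-ttpy, 103 cisplatin and 12 untreated regions were left in the block. The untreated list also lacks many of its own peak numbers in the block, as given below. Read depth is unknown, and whether these counts follow the amount of damage was not tested. Regions were counted by position alone and no copy number entered the values.

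The density was uneven along the block, and both treated lists were densest at its start and again 11 to 12 Mb into it. Windows of 1 Mb are given here by their distance from the start of the block. In the first window, from 0 to 1 Mb, there were 81 Pt-ttpy, 175 cisplatin and 7 untreated regions. The window from 11 to 12 Mb held 52 Pt-ttpy, 90 cisplatin and 16 untreated regions. Next came the window from 13 to 14 Mb for Pt-ttpy, with 27 regions beside 62 cisplatin regions, and the window from 12 to 13 Mb for cisplatin, with 69 regions beside 22 Pt-ttpy regions. Neither of these held an untreated region. The other windows were a low plateau: outside the windows starting at 0 and 11 Mb the counts ran from 6 to 27 for Pt-ttpy, with a median of 18, and from 19 to 69 for cisplatin, with a median of 39. The sparsest windows were the same in part. From 6 to 7 Mb there were 7 Pt-ttpy, 19 cisplatin and 2 untreated regions. From 10 to 11 Mb the Pt-ttpy list had its lowest count, 6, where the cisplatin list had 38 and the untreated list 0. From 4 to 5 Mb there were 13 Pt-ttpy, 23 cisplatin regions and 1 untreated region.

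**Figure D1:**
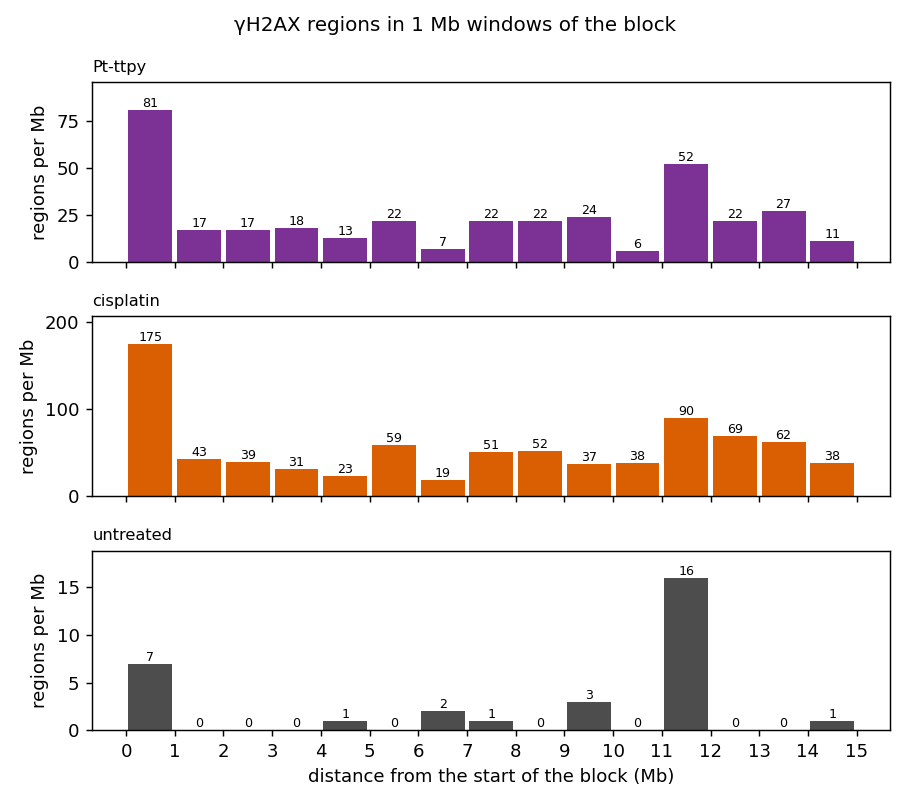
Number of γH2AX regions in each of the 15 windows of 1 Mb, by distance from the start of the block, for the Pt-ttpy, cisplatin and untreated lists (each axis has its own scale). The first window and the one that starts 11 Mb into the block stand above the others in the 3 lists, with 81 and 52 Pt-ttpy, 175 and 90 cisplatin, and 7 and 16 untreated regions.

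The treated lists were high and low in much the same windows. Pearson's r between Pt-ttpy and cisplatin counts was 0.953 and Spearman's rho 0.755 over 15 windows. Without the windows starting at 0 and 11 Mb they were 0.710 and 0.620 over 13 windows. These values describe 2 lists that share the genome's mappability, copy number and base composition, and they carry no test. The ratio of the treated lists varied between windows. It was lowest from 10 to 11 Mb, at 0.158 Pt-ttpy regions per cisplatin region, and highest from 9 to 10 Mb, at 0.649, where there were 24 Pt-ttpy and 37 cisplatin regions. The untreated list kept regions in few windows: 8 of the 15 windows held 0, and the windows starting at 0 and 11 Mb held 22.6% and 51.6% of its 31 regions. The same windows held 22.4% and 14.4% of the Pt-ttpy regions, and 21.2% and 10.9% of the cisplatin regions.

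The block adjoined a denser flank, and after its first 100 kb the counts fell before they rose again. In the last 1 Mb before the block there were 140 Pt-ttpy, 188 cisplatin and 54 untreated regions. The first 100 kb of the block held 9 Pt-ttpy and 22 cisplatin regions. The window from 150100001 to 150200000 held 0 and 7, and that from 150200001 to 150300000 held 0 and 2. From 150300001 to 150400000 there were 13 and 24. At the far edge the counts were low on both sides, with 11 Pt-ttpy, 38 cisplatin regions and 1 untreated region in the last 1 Mb of the block, and 6 Pt-ttpy, 40 cisplatin regions and 1 untreated region in the first 1 Mb after it. The regions nearest to the edge at 150 Mb were much alike on its 2 sides. The last Pt-ttpy region before it lay 0.180 kb away and the first after it 5.04 kb away, both with a fold of 3.01. The corresponding cisplatin regions lay 0.0720 kb before it with a fold of 3.64 and 10.8 kb after it with a fold of 3.12.

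Compared with its neighbours, the block was intermediate in density, and the treated lists ordered the stretches of the long arm alike. In the 5 Mb before the block there were 161 Pt-ttpy, 200 cisplatin and 85.6 untreated regions per Mb. In the next stretch, 35 Mb from the end of the block to 200 Mb, there were 41.6 Pt-ttpy and 101 cisplatin regions per Mb, both above the block, and 0.914 untreated regions per Mb. The distal stretch, the 49 Mb that follow, was close to the block, with 21.8 Pt-ttpy, 54.0 cisplatin and 2.37 untreated regions per Mb. On the short arm, from 5 to 120 Mb, there were 2.69 Pt-ttpy, 3.67 cisplatin and 1.54 untreated regions per Mb. The density of the block was 0.800 times that of the 84 Mb after it, the next and the distal stretch together, for Pt-ttpy, 0.748 times for cisplatin and 1.17 times for untreated cells. These ratios depended on the edges and on the strength of the regions. With the block moved 1 Mb towards the centromere they were 1.09 for Pt-ttpy, 0.884 for cisplatin and 3.18 for untreated cells. Among regions that reached a -log10 q of 5 the ratios were 0.951 for Pt-ttpy, 0.986 for cisplatin and 0.851 for untreated cells. Without the first window of the block the ratios were 0.665 for Pt-ttpy and 0.632 for cisplatin. The untreated ratio was 0.608 without the window from 11 to 12 Mb. The number of Pt-ttpy regions per cisplatin region was 0.437 in the block, 0.412 in the next stretch, 0.404 in the distal stretch, 0.732 on the short arm and 0.805 in the 5 Mb before the block. The interval of the block, 0.385 to 0.495, held the values of the next and distal stretches and neither of the others.

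**Figure D2:**
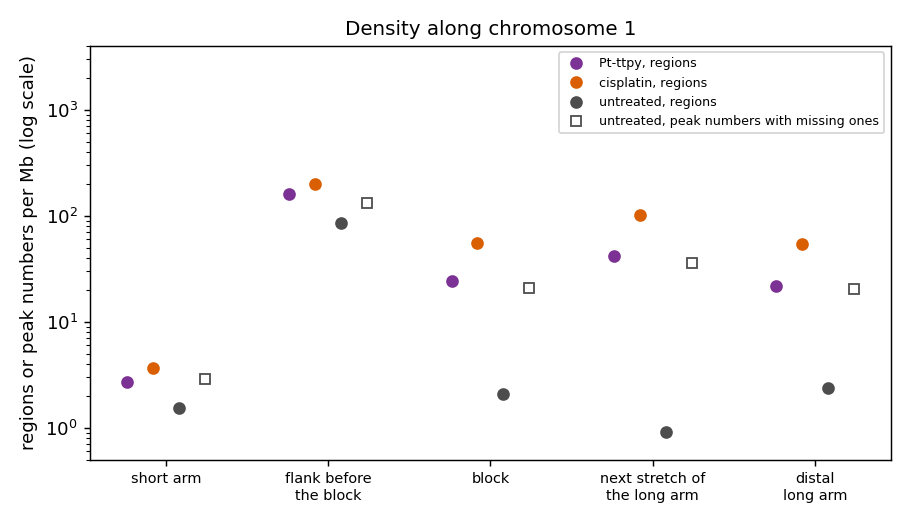
Density of γH2AX regions on a log scale in 5 stretches of chromosome 1 for the Pt-ttpy, cisplatin and untreated lists, with untreated peak numbers that include the missing ones as open squares. In the block the Pt-ttpy list (24.1 per Mb) and the untreated numbering (20.9 per Mb, without missing numbers at the edges) lie close together. The cisplatin list is higher (55.1 per Mb) and the regions kept in the untreated list are lowest (2.07 per Mb).

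The regions of the block were weak within their own lists. The authors' fold, the ratio of a peak's pileup to its background, had a median of 3.13 in the Pt-ttpy, 3.12 in the cisplatin and 4.21 in the untreated regions of the block, against 3.91, 3.64 and 5.71 over the whole lists (chromosomes 1 to 22 and X). The background behind the fold is not stated, so folds were compared only within a list. There they take evenly spaced values, 0.129 apart for Pt-ttpy, 0.173 for cisplatin and 0.301 for untreated cells. Of the block's regions 66.8% of Pt-ttpy, 79.3% of cisplatin and 61.3% of untreated regions lay within 5 steps of the lowest fold of their list, where the whole lists had 26.7%, 46.1% and 26.1%. A -log10 q of at least 5 was reached by 36 Pt-ttpy regions (9.97%), against 57.6% of the whole list. For cisplatin it was reached by 103 regions (12.5%), against 46.9%, and for untreated cells by 12 regions (38.7%), against 73.9%. On the short arm the shares were 54.7% for Pt-ttpy, 53.6% for cisplatin and 62.1% for untreated cells. In the next stretch they were lower than in the block, at 4.81% for Pt-ttpy, 7.42% for cisplatin and 25.0% for untreated cells. In the distal stretch they were 13.3%, 12.2% and 61.2%. The median fold in each of these stretches was 3.13 for Pt-ttpy and 3.12 for cisplatin, as in the block. For untreated cells it was 4.06 in the next and 5.41 in the distal stretch. On the short arm the median fold was 3.91 for Pt-ttpy, 3.81 for cisplatin and 5.11 for untreated cells.

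**Figure D3:**
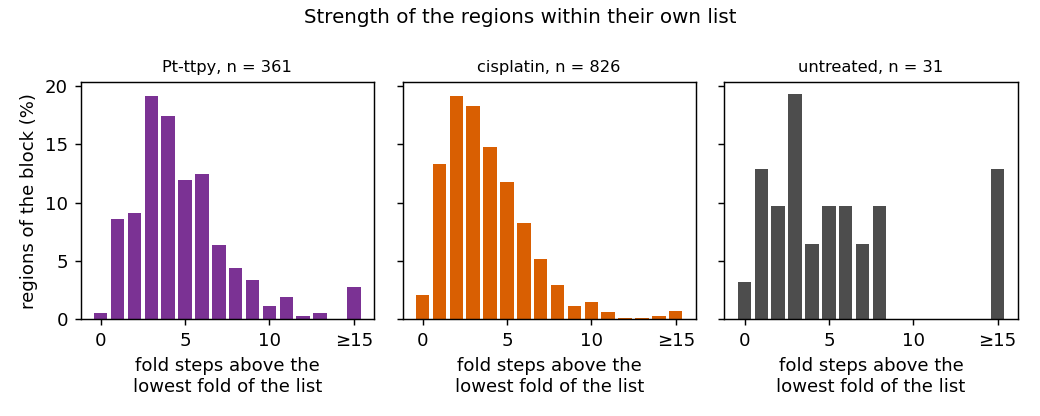
Share of the block's regions by the number of fold steps above the lowest fold of their list, for the Pt-ttpy, cisplatin and untreated lists (regions at 15 or more steps are pooled in the last bar). Within 5 steps lie 66.8% of Pt-ttpy, 79.3% of cisplatin and 61.3% of untreated regions.

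A single place stood far above the rest in all 3 lists. At chr1:156186226-156186787 the Pt-ttpy list had a fold of 23.6. The cisplatin list called chr1:156186226-156186663 with a fold of 28.6, and the untreated list chr1:156186226-156186662 with a fold of 51.4. The 3 regions begin at the same base. The second highest fold in the block was 6.11 for Pt-ttpy, 7.62 for cisplatin and 8.42 for untreated cells, so no other region came near. It lies in the window from 6 to 7 Mb, among the sparsest of both treated lists.

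The next strongest places were also called without drug. At chr1:156307076-156307186 the fold was 6.11 in the Pt-ttpy list, beside 7.62 at chr1:156307075-156307188 in the cisplatin list and 7.82 at chr1:156307076-156307185 in the untreated list. Each of these regions is 110 to 114 bp wide. At chr1:159576411-159576559 the Pt-ttpy region had a fold of 5.59, the matching cisplatin region 5.02 and the untreated region 3.91. At chr1:157399944-157400068 the Pt-ttpy region had a fold of 4.94, the cisplatin region 7.27 and the untreated region 5.11. At chr1:161412317-161412780 the Pt-ttpy region had a fold of 5.46, the cisplatin region at chr1:161412545-161412813 had 6.58 and the untreated region at chr1:161412566-161412796 had 8.42. These and the strongest place are the 5 highest folds of the Pt-ttpy list in the block, and all 5 were called in the 3 lists. Of the 5 highest cisplatin regions the fifth, at chr1:161414400-161414988 with a fold of 6.06, was also called in the other lists. Of the 5 highest untreated regions, the region at chr1:161400653-161400760 had a fold of 8.42 and a match in the cisplatin list with a fold of 5.71, and no Pt-ttpy region overlapped it.

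The regions of the 2 drugs seldom lay at the same place. Of the 361 Pt-ttpy regions, 87 shared at least 1 bp with a cisplatin region, or 24.1% (95% exact interval 19.8 to 28.9), against 69.9% over the whole list. Of the 826 cisplatin regions, 89 overlapped Pt-ttpy, or 10.8% (8.74 to 13.1), against 47.8% over the whole list. Untreated regions lay under 18 Pt-ttpy regions, or 4.99% (2.98 to 7.77), against 39.5%, and under 20 cisplatin regions, or 2.42% (1.49 to 3.71), against 27.3%. The intervals cover counting error only, and since regions cluster they are too narrow. From the untreated side, 18 of 31 regions lay on a Pt-ttpy region, or 58.1%, against 95.1% over the whole list, and 21 of 31 on a cisplatin region, or 67.7%, against 96.1%.

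Merged over the lists, the regions formed 1103 separate places. Cisplatin alone accounted for 734 of these (66.5%), Pt-ttpy alone for 271 (24.6%), and both drugs without an untreated region for 69 (6.26%). All 3 lists had 17 places in common, of which 9 lay 11 to 12 Mb into the block and 4 in its first 1 Mb. The untreated list was alone at 10 places and with cisplatin at 2. No such merging over the whole lists is given here, so whether these shares are particular to the block was not tested. The overlap of regions over the whole lists is given above. Regions called with 1 drug alone were the weakest. The median fold was 3.13 for the 271 Pt-ttpy regions off both other lists, 3.26 for the 72 on a cisplatin region alone and 4.04 for the 15 on both. For cisplatin it was 3.12 for the 734 off both other lists, 3.46 for the 72 on a Pt-ttpy region alone and 4.15 for the 17 on both.

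Stronger regions coincided more often. With a -log10 q of at least 5, 22 of 36 Pt-ttpy regions (61.1%, interval 43.5 to 76.9) overlapped a cisplatin region of any strength, against 65 of 325 weaker ones (20.0%, 15.8 to 24.8). Of the stronger cisplatin regions 37 of 103 (35.9%, 26.7 to 46.0) overlapped Pt-ttpy, against 52 of 723 weaker ones (7.19%, 5.42 to 9.32). The same split on the short arm gave 91.7% of stronger and 52.1% of weaker Pt-ttpy regions on a cisplatin region. In the next stretch it gave 45.7% and 14.7%, and in the distal stretch 76.1% and 18.3%. Over all strengths the share of Pt-ttpy regions on a cisplatin region was 24.1% in the block, 16.2% (14.4 to 18.2) in the next stretch and 26.0% (23.4 to 28.7) in the distal stretch. It was 73.8% on the short arm and 78.0% in the 5 Mb before the block. In the block the windows starting at 11 and 0 Mb had the highest shares, 40.4% and 38.3%, and the window from 2 to 3 Mb the lowest, 5.88% or 1 of 17.

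Pt-ttpy regions lay nearer to cisplatin regions than the reverse. The distance from a Pt-ttpy region's midpoint to the nearest cisplatin midpoint had a median of 1.17 kb, with quartiles of 0.191 and 5.11 kb, and 172 of 361 (47.6%) lay within 1 kb. From a cisplatin region to the nearest Pt-ttpy region the median was 6.65 kb, with quartiles of 1.34 and 21.6 kb, and 180 of 826 (21.8%) lay within 1 kb. Among regions that overlapped none of the other drug, 85 of 274 Pt-ttpy regions (31.0%) were within 1 kb of a cisplatin region, and 91 of 737 cisplatin regions (12.3%) were within 1 kb of a Pt-ttpy region. The denser list offers nearer neighbours, and the part of this in the difference was not tested. In the next stretch, where cisplatin regions were denser, 41.7% of Pt-ttpy regions lay within 1 kb of a cisplatin region, and in the distal stretch 48.6%. Farther than 50 kb from the other drug lay 3 of 361 Pt-ttpy regions (0.831%) and 100 of 826 cisplatin regions (12.1%). The Pt-ttpy region farthest from cisplatin, at chr1:158080001-158080117 with a fold of 3.13, was 79.1 kb from the nearest, and a pair at chr1:155067593-155067761 and chr1:155068059-155068293, also with folds of 3.13, were 54.9 and 54.4 kb away. Cisplatin regions lay up to 255 kb from Pt-ttpy, at chr1:164651279-164651387 with a fold of 3.12. The next were at chr1:153562400-153562540, 252 kb away with a fold of 3.98, and at chr1:164698500-164698616, 213 kb away with a fold of 2.94.

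Widths were short and nearly equal between the drugs. The median width was 0.148 kb for Pt-ttpy (quartiles 0.115 and 0.190), 0.145 kb for cisplatin (0.119 and 0.192) and 0.114 kb for untreated regions (0.100 and 0.154). Over the whole lists the medians were 0.185 kb for Pt-ttpy, 0.169 kb for cisplatin and 0.164 kb for untreated cells. In the next stretch they were 0.145 kb for Pt-ttpy and 0.148 kb for cisplatin, and in the distal stretch 0.147 kb for both. On the short arm they were 0.211 and 0.193 kb, and in the 5 Mb before the block 0.214 and 0.195 kb. No treated region was narrower than 101 bp, whereas 9 of the 31 untreated regions were. The widest regions of both treated lists were the same place, chr1:161437410-161438282 for Pt-ttpy at 873 bp and chr1:161437241-161438302 for cisplatin at 1062 bp. The widest untreated region was chr1:161413266-161413736 at 471 bp, in the same cluster. These are widths of called peaks and do not measure how far γH2AX spreads.

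Spacing was strongly uneven in each list. The median distance between neighbouring midpoints was 10.6 kb for Pt-ttpy, 6.96 kb for cisplatin and 10.3 kb for untreated regions, while the means were 41.6, 18.1 and 462 kb. With a -log10 q of at least 5 the medians were 270 kb for Pt-ttpy, 56.5 kb for cisplatin and 21.9 kb for untreated regions. The upper quartiles were 49.7 kb for Pt-ttpy and 20.7 kb for cisplatin. Neighbours within 1 kb made up 53 of 360 Pt-ttpy spacings (14.7%) and 123 of 825 cisplatin spacings (14.9%), against 51.6% and 46.1% on the short arm. In the 5 Mb before the block these shares were 53.8% for Pt-ttpy and 51.6% for cisplatin. They were 8.18% and 14.4% in the next stretch, and 15.2% and 14.9% in the distal stretch. Divided into 150 windows of 100 kb, the block had 47 windows with 0 Pt-ttpy and 17 with 0 cisplatin regions. The longest empty stretch was 516 kb for Pt-ttpy, between the regions that end at 164395903 and start at 164911769. For cisplatin it was 311 kb, between 154282370 and 154592906, and for untreated regions 3800 kb, between 150810668 and 154611860.

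The densest cluster without drug spans 30 kb, chr1:161412001-161442000, limits that were set after the regions were seen. It held 20 Pt-ttpy, 23 cisplatin and 14 untreated regions, which is 5.54%, 2.78% and 45.2% of each list's regions in the block. The regions covered 18.2% of the 30 kb for Pt-ttpy, 25.5% for cisplatin and 7.14% for untreated cells. The lists coincided there more than elsewhere in the block, since 15 of 20 Pt-ttpy regions (75.0%) overlapped cisplatin and 10 (50.0%) overlapped an untreated region. For cisplatin, 16 of 23 (69.6%) overlapped Pt-ttpy. Folds ran from 2.75 to 5.46 for Pt-ttpy, from 2.94 to 6.58 for cisplatin and from 3.31 to 8.42 for untreated regions. In the Pt-ttpy list 7 regions and in the cisplatin list 13 reached a -log10 q of 5, of 36 and 103 in the whole block.

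As a share of the bases compared at each shift, the treated regions of this cluster overlapped themselves most at about 8 or 15 kb. Fewer bases are compared at longer shifts, for cisplatin 7562 at 1.20 kb, 5766 at 7.60 kb and 4774 at 14.6 kb. In bases, the cisplatin overlap was highest at 1.20 kb, with 2792, against 2496 at 7.60 kb and 1813 at 14.6 kb. For Pt-ttpy it was highest at 8.10 kb, with 1391, against 1171 at 1.00 kb and 1163 at 14.8 kb. Shifted against itself, the cisplatin list covered 43.3% of the compared bases again at a shift of 7.60 kb and 38.0% at 14.6 kb. Over shifts from 1 to 6 kb the median was 14.9% and the highest 36.9%, at 1.20 kb. The Pt-ttpy list gave 38.3% at 8.10 kb and 42.3% at 14.8 kb, against a median of 11.5% and a highest of 22.7% over shifts from 1 to 6 kb. The 14 untreated regions followed this less. They covered 1.40% again at 7.60 kb and 7.23% at 8.10 kb, the best treated shifts near 8 kb. Their highest values were 14.2% between 6 and 9 kb, at 6.80 kb, and 18.0% between 13 and 16 kb, at 13.4 kb. Between 9 and 13 kb they reached 15.7%, at 10.5 kb. Near the best treated shifts of about 15 kb their value was 17.4%, at 14.7 kb, beside a highest of 17.0% between 1 and 6 kb. The best shifts were picked from many, so these are descriptions. Reads that match several copies of a sequence were not examined here. Beyond the cluster, from 161450001 to 161700000, there were 15 Pt-ttpy, 22 cisplatin and 0 untreated regions, and 5 of the 15 Pt-ttpy regions overlapped cisplatin.

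**Figure D4:**
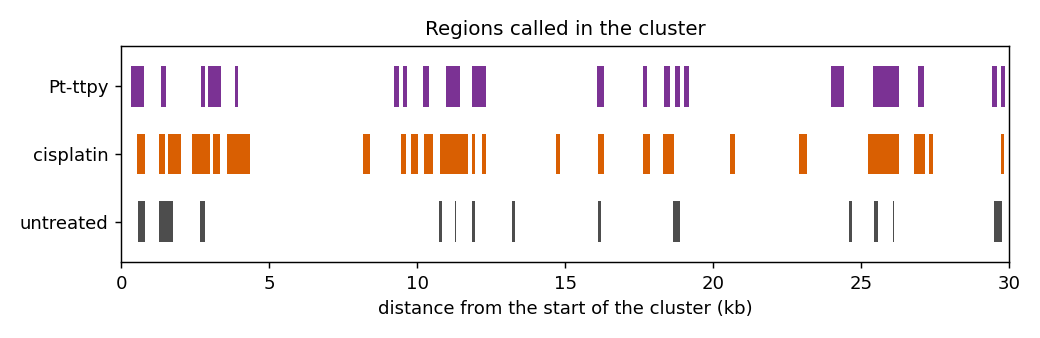
Regions called in the cluster of 30 kb, drawn to scale by distance from its start, for the Pt-ttpy list (20 regions), the cisplatin list (23) and the untreated list (14). Groups of treated regions lie around 3, 11, 18 and 26 kb from the start.

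The other dense place lies at the start of the block. From 150300001 to 150700000, again limits set after the regions were seen, there were 67 Pt-ttpy, 119 cisplatin and 6 untreated regions, or 18.6%, 14.4% and 19.4% of each list's regions in the block. The densest single window of 100 kb in both treated lists, from 150400001 to 150500000, held 24 Pt-ttpy, 40 cisplatin and 4 untreated regions. The fold there had a median of 3.26 and a highest value of 4.04 for Pt-ttpy, 3.29 and 4.50 for cisplatin, and 3.91 and 4.51 for untreated cells. A -log10 q of at least 5 was reached by 8 of 67 Pt-ttpy, 25 of 119 cisplatin and 0 of 6 untreated regions. Of the 67 Pt-ttpy regions 28 (41.8%) overlapped cisplatin, and 4 an untreated region. Of the 6 untreated regions, 4 overlapped a Pt-ttpy region and 5 a cisplatin region. They carry 6 of 21 consecutive peak numbers, with 15 missing between them.

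Missing peak numbers bear on every contrast with untreated cells in this block. In the deposited lists the regions are numbered in order along chromosome 1, and in both treated lists no number is skipped in the block. No number is repeated there in any list, whereas elsewhere on chromosome 1 neighbouring untreated regions share a number 179 times, 42 of them in the 5 Mb before the block. The untreated regions of the block run from number 2283 to number 2596, a span of 314 numbers of which 31 are present and 283 (90.1%) are missing, against 49.0% missing over the whole untreated list. The share missing was 97.5% in the next stretch and 89.1% in the distal stretch. It was 52.4% on the short arm and 41.1% in the 5 Mb before the block. A further 37 missing numbers lie between the last region before the block and the first in it, and 10 between the last in it and the first after it, and cannot be placed on either side of the edge. Of the 31 kept regions, 10 (32.3%) have a summit outside their own limits, against 21.5% over the whole list. With the 283 missing numbers counted, and those at the edges left out, the untreated numbering held 20.9 numbers per Mb in the block. Beside these were 24.1 Pt-ttpy and 55.1 cisplatin regions per Mb. There were then 1.15 Pt-ttpy and 2.63 cisplatin regions per untreated number, where the kept regions alone gave ratios of 11.6 and 26.6. The ratios with missing numbers can be too high. They set the regions of the whole block against the 314 numbers from the first to the last kept untreated region. Between those lay 339 Pt-ttpy and 755 cisplatin regions. The same ratios with missing numbers were 1.16 and 2.81 in the next stretch, 1.06 and 2.62 in the distal stretch, and 0.925 and 1.26 on the short arm. The reason for the missing numbers is not stated.

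The missing numbers can be placed between their kept neighbours, and they were spread over the block. In the longest interval, 3.80 Mb between chr1:150810668 and chr1:154611860, there were 63 Pt-ttpy regions, 143 cisplatin regions and 62 missing untreated numbers. The interval of 2.39 Mb that ends at chr1:164245970 had 57 Pt-ttpy regions and 63 missing numbers, and per Mb it had 23.8 Pt-ttpy regions, 62.3 cisplatin regions and 26.4 missing numbers. In that of 1.95 Mb before chr1:159351062 there were 41 Pt-ttpy, 89 cisplatin and 42 missing. Over the 6 intervals longer than 0.5 Mb, 12.6 Mb in all, there were 215 Pt-ttpy regions, 544 cisplatin regions and 219 missing untreated numbers. The missing numbers exceeded the Pt-ttpy regions in 3 of these intervals and fell short of them in 3, and were below the cisplatin regions in all 6. Near the start of the block all were denser: in the interval of 0.261 Mb before chr1:150810606 there were 30 Pt-ttpy regions, 60 cisplatin regions and 17 missing numbers, which per Mb is 115, 229 and 65.0. A missing number shows that a peak was numbered there and says nothing of its width, its fold or whether it overlapped a treated region.

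**Figure D5:**
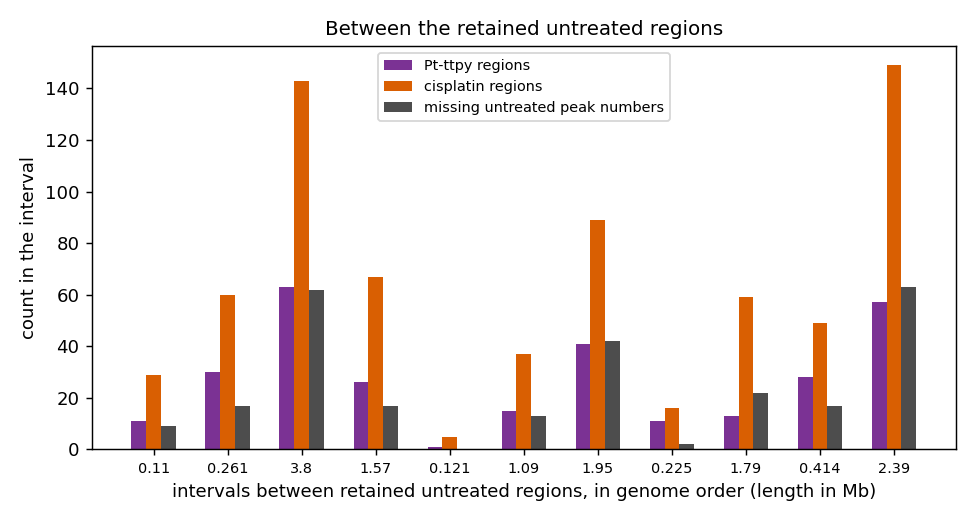
Pt-ttpy regions, cisplatin regions and missing untreated peak numbers in the intervals of at least 0.1 Mb between neighbouring kept untreated regions, in genome order, with the length of each interval in Mb. In the interval of 3.8 Mb the counts are 63, 143 and 62, and in that of 1.95 Mb they are 41, 89 and 42.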

How the data were processed

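The data are 3 narrowPeak lists from γH2AX ChIP-seq of A2780 cells, 1 for each of the Pt-ttpy, cisplatin and untreated groups, with 2 samples behind each per the labels. Per the submitters' processing notes, BWA 0.7.5, MACS2 2.1.0 and hg19 were used. The control, the calling settings and how replicates were combined are not stated in those sources, and read depth is unknown. The deposited names of both treated lists also carry the short form of untreated. Whether untreated cells entered the calling of these lists is not stated. The deposited columns used are each peak's fold ratio over background, its -log10 q-value (a q-value on a log scale) and the summit position. A deposited score repeats the q-value, as the whole part of 10 times it. These values were ranked or cut within each list. The counts left by the same cut were then set side by side, although background and read depth are unknown.

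Regions were assigned by midpoint, overlap meant at least 1 bp, and exact binomial intervals (Clopper-Pearson, 95%) were computed for shares and ratios of counts. With 1 list per group no p-value was computed. Alternatives were a stricter q, equal list lengths, merging within 1 kb, other block edges, other overlap limits and counting missing numbers. Those leaving out a window, and the limits of the named places, were added after the data were seen. The block, lists and named regions were chosen with earlier results of these data known. Named were the regions of highest fold, the widest, those farthest from the other drug, and the densest and sparsest windows. Interval code was tested on simulated data. Computations used scipy 1.17.1, pandas 2.3.3 and numpy 2.4.6 in Python 3.11.15, with plots from matplotlib 3.10.9.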

Additional observations from a re-analysis of the deposited data

How the results depend on the processing

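The number of regions depended on strength. With a -log10 q of at least 5 the counts were 36 for Pt-ttpy, 103 for cisplatin and 12 for untreated cells. With 10090 top regions by fold in each list, which leaves the untreated list whole, they were 26 for Pt-ttpy, 37 for cisplatin and 31 for untreated cells. With equal lists the cisplatin count stayed above the untreated count, and the Pt-ttpy count fell below it. The ratio of Pt-ttpy to cisplatin was then 0.350 and 0.703, and 0.502 with the block moved 1 Mb towards the centromere, so Pt-ttpy was below cisplatin in each of these. The untreated count was 84 with the block moved 1 Mb towards the centromere, 314 with missing numbers and 15 without the window 11 to 12 Mb into the block. The share of Pt-ttpy regions on cisplatin was 44.4% with the stricter q in both lists, 38.5% with equal lists, 36.7% after the 1 Mb move towards the centromere, 19.6% after a 1 Mb move the other way, 16.1% when 50% of the width had to be shared and 40.4% with a gap of up to 500 bp. For cisplatin on Pt-ttpy these were 16.5%, 27.0%, 18.6%, 8.25%, 6.05% and 18.2%. The share of Pt-ttpy regions on untreated ones was 16.7% with the stricter q, 38.5% with equal lists, 11.8% after that move, 2.77% at 50% of the width and 2.59% without the window 11 to 12 Mb into the block. For cisplatin on untreated these were 8.74%, 29.7%, 6.35%, 1.09% and 1.22%, and 3.75% with a gap of up to 500 bp. Density relative to the 84 Mb after the block was 0.951 for Pt-ttpy and 0.986 for cisplatin with the stricter q. It was 0.958 and 0.929 with equal lists, 1.09 and 0.884 after the move towards the centromere, and 0.665 and 0.632 without the first window. After a 1 Mb move the other way it was 0.628 and 0.623, with the compared stretch starting at the new end of the block. For untreated cells it was 3.18 after the move towards the centromere and 0.608 without the window 11 to 12 Mb into the block. The median spacing moved to between 5.04 and 270 kb for Pt-ttpy, between 4.59 and 56.5 kb for cisplatin and between 2.21 and 70.4 kb for untreated regions. Of 119 recomputed values, 58 stayed within the exact interval of the reported value or, for counts, within 1.5 times of it. The cause of the other changes was not tested. Merging within 1 kb kept the counts of all 3 lists within that limit. No paired analysis was possible because each list pools the 2 samples of its group, and for the same reason no replicate could be left out. Depth could not be judged, since the lists give no read totals.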
